A study of Homo sapiens with 4 samples.

Results

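The CEP genes, which encode proteins of the centrosome, and the CENP genes, which encode proteins of the centromere, were followed in MKN45 cells exposed to lipopolysaccharide (LPS) of Helicobacter pylori. Members were the probe sets whose platform annotation gave a single symbol made of CEP and digits, with or without a letter, or of CENP and letters. CENPA, CENPE and CENPF were left out by that rule. Where a gene had several probe sets, the one with the highest mean over the 4 arrays stood for it, so the probe set of each gene was chosen by its mean level, the only measured value the rule used. The families themselves were chosen with earlier results of these data known, so their shares below are descriptions. This gave 49 genes, 34 of them CEP and 15 CENP, with 131 probe sets between them, among 19775 genes with a probe set of their own. All 49 lay above the filter on low levels, as did 16252 of the 19775 genes.

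MKN45 is an established line of gastric epithelial cells from an adenocarcinoma. Cells in both groups had their medium replaced, with fresh medium alone in the untreated group and with medium holding 10 µg/ml LPS, a glycolipid of the outer bacterial membrane, in the LPS group. Total RNA from cells harvested after 8 h was read on Affymetrix arrays, 2 per group, and the series text speaks of 2 independent experiments. All values are log2 levels as deposited, and a difference is LPS minus untreated on that scale. Levels of different probe sets depend on their probes, so the members were not ranked by level. Mean levels did serve to filter, to choose the probe set of each gene and to form bins of level. On bulk arrays of this kind, fewer cells in a phase of the cycle and less RNA per cell cannot be told apart.

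The centrosome is built around a pair of centrioles. New centrioles form beside old ones in S phase, a mother centriole carries appendages that dock it as the base of a primary cilium, and a protein linker holds the centrosomes together until mitosis. The CENP proteins act at the centromere, where a network of subunits, the constitutive centromere-associated network (CCAN), sits on chromatin that carries the histone variant CENP-A and recruits the outer kinetochore, which binds spindle microtubules. Many of these genes are transcribed late in the cell cycle, and the DREAM and MuvB complexes that govern such genes act through a short promoter word, the cell cycle gene homology region (CHR), while NF-Y binds CCAAT boxes.

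The promoters of 5 members are shown because these genes had the 3 lowest differences among the CEP genes (CEP295, CEP57 and CEP68) and the lowest and the highest among the CENP genes (CENPC and CENPO). Each is the 250 bases before a start site in RefSeq, build GRCh38.p14, read 5′ to 3′ on the gene's strand. Capitals mark a CHR word (TTTGAA or TTCGAA) or a CCAAT box on either strand, so TTCAAA and ATTGG are the same words read on the opposite strand. CEP295 lies at chr11:93661432-93661681 on the plus strand, CEP57 (the first of its 2 windows) at chr11:95789764-95790013 on the plus strand, CEP68 at chr2:65056166-65056415 on the plus strand, CENPC at chr4:67545504-67545753 on the minus strand and CENPO at chr2:24793175-24793424 on the plus strand.
CEP295: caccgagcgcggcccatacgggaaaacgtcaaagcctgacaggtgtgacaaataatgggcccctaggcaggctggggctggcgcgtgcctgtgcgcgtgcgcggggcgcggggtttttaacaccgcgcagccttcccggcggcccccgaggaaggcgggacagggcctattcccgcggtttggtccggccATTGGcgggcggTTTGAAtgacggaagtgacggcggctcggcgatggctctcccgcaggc
CEP57: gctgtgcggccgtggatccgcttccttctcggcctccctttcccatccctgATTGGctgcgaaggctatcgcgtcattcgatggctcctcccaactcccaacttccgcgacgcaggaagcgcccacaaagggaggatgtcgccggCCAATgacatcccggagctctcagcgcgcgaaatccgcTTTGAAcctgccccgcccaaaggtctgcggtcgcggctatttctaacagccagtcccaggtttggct
CEP68: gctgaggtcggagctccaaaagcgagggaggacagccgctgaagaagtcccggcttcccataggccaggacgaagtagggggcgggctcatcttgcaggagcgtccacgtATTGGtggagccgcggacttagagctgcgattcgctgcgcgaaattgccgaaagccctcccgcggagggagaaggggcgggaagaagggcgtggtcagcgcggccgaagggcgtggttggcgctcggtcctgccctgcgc
CENPC: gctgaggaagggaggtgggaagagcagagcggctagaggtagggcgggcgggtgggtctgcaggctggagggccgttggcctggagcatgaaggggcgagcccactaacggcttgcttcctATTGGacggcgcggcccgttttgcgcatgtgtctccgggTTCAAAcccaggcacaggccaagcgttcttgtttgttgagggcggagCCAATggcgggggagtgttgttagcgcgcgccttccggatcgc
CENPO: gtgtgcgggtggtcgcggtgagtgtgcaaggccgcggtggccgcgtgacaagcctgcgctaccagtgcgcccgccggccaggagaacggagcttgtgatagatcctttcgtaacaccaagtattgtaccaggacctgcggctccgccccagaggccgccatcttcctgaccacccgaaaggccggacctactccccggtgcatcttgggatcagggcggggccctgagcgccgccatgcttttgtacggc

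In CEP295 a CHR word began 48 bases before the start and a CCAAT box 60 bases before it. CEP57 held a CHR word at 67 bases and CCAAT boxes at 105 and 199 bases. CENPC held a CHR word at 90 bases and CCAAT boxes at 43 and 129 bases. CEP68 held a CCAAT box alone, at 140 bases, and neither word was found in the 250 bases shown for CENPO. The longer window of CENPO, which ran to 50 bases after the start, did hold a CHR word. CENPO is therefore counted among the CENP genes with that word. Over windows that ran from 250 bases before to 50 after each start, read on both strands, a CHR word was in 14 of the 30 CEP genes with a window (46.7%), in 4 of 12 CENP genes (33.3%) and in 16.2% of the 12834 tested genes with one. A CCAAT box was in 17 CEP genes (56.7%), 7 CENP genes (58.3%) and 41.9% of all. Both words stood in 6 CEP genes (20%), 3 CENP genes (25%) and 6.6% of all. The CEP genes had 1.27 windows each, the CENP genes 1.0 and all genes 1.42, so more windows per gene did not go with the higher shares. The 14 CEP genes with a CHR word had a median difference of -0.12 and the 16 without one -0.14. The 17 with a CCAAT box had -0.11 and the 13 without one -0.16, and the 6 with both words -0.09 and the other 24 -0.14. These medians were not compared by a test. The matches describe letters in a window and are not evidence of binding.

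After 8 h of LPS most CEP transcripts lay a little lower than in untreated cells, and none passed the test. Of the 34 CEP genes, 29 had a difference below 0 (85.3%), with a median of -0.11 (-7.18% in the level) and a range of -0.38 to 0.12. The 15 CENP genes were divided, with 10 below 0 (66.7%), a median of -0.03 (-2.03%) and a range of -0.25 to 0.24. Over all 16252 genes tested the median was -0.0047 and 51.8% were below 0. Among these genes limma called 4 at an adjusted p under 0.05, which is 0.0246% of them, and 0 CEP and 0 CENP genes were called. The smallest limma adjusted p was 0.257 among the CEP genes and 0.343 among the CENP genes. At an unadjusted p under 0.05, limma had 7 CEP genes lower and 0 higher, and 2 CENP genes lower and 1 higher, against a background of 7.91% of all genes lower and 3.72% higher. As shares of their families the lower genes made 20.6% of the CEP and 13.3% of the CENP genes. The intervals reached a median of 0.20 to either side for CEP genes and 0.17 for CENP genes, and 7 CEP and 3 CENP intervals did not include 0.

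**Figure D1:**
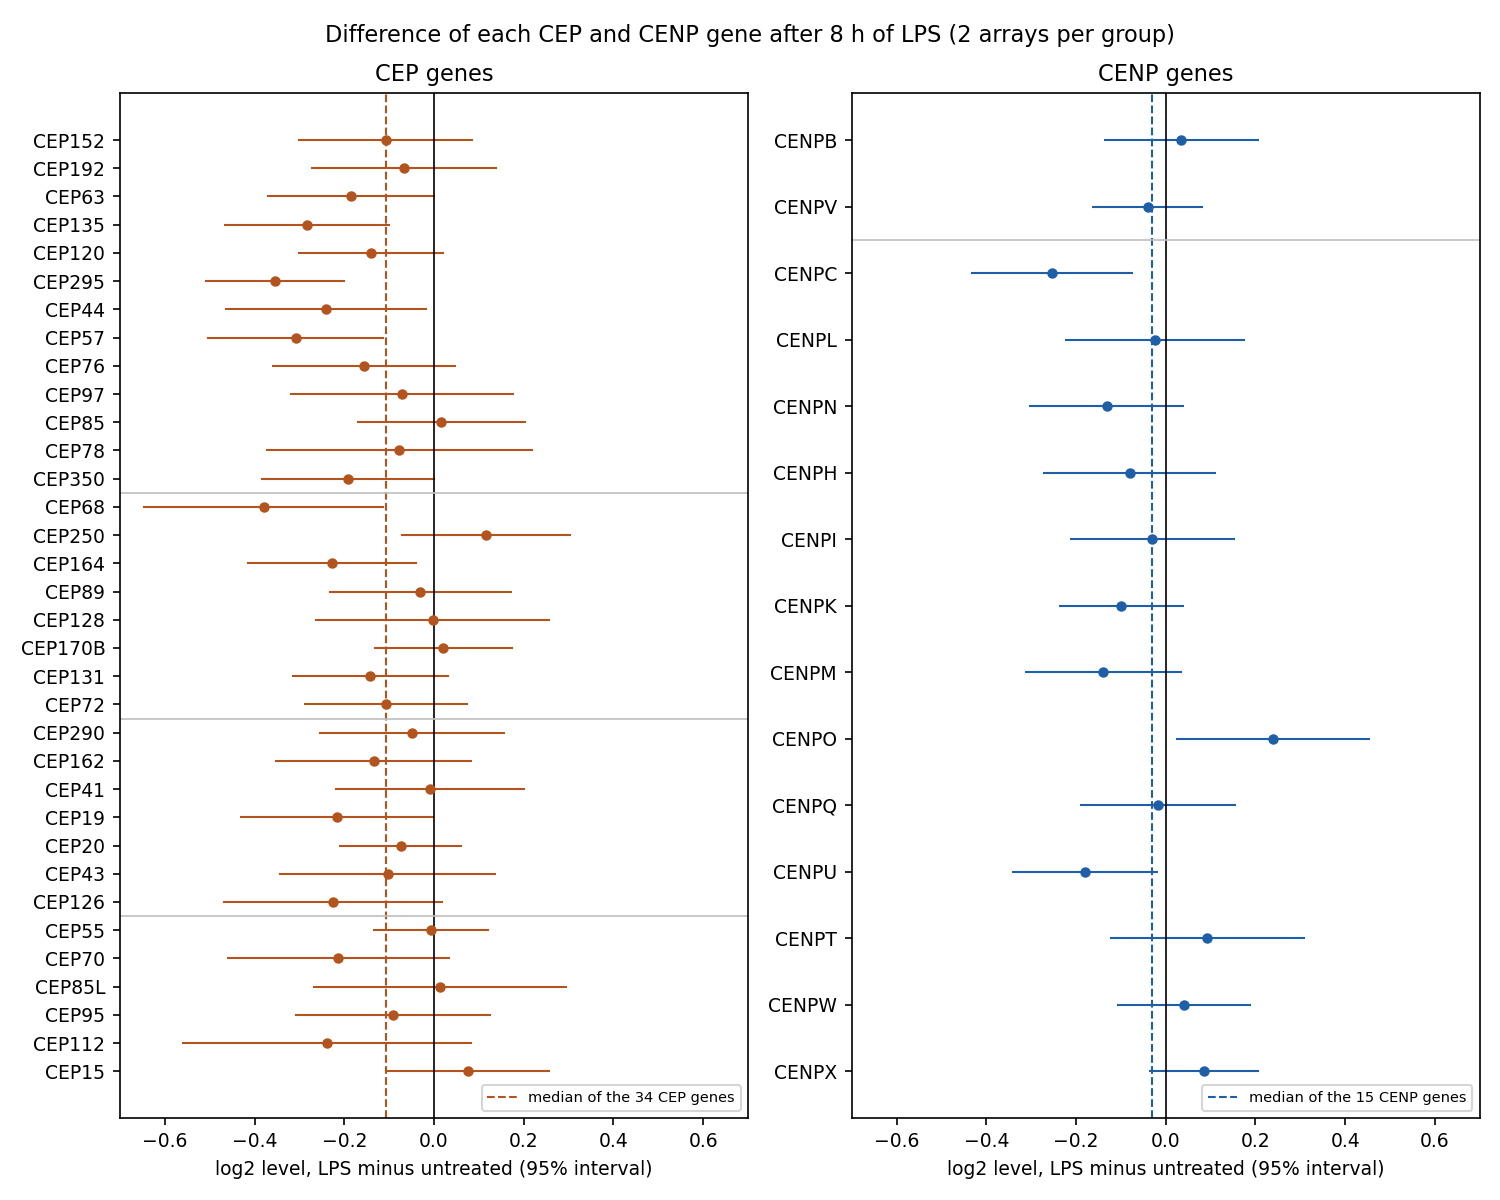
Difference of each of the 34 CEP genes (left) and 15 CENP genes (right), LPS minus untreated in log2 units (horizontal axis), with the 95% interval of the limma fit from 2 arrays per group; grey lines divide the genes by role and dashed lines mark the family medians. The CEP points lie mostly left of 0, with a median of -0.11, and the CENP points lie on both sides, with a median of -0.03.

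The same differences can be read from how the arrays separated. Both LPS arrays lay below both untreated arrays in 17 of 34 CEP genes (50%), against 25.7% of all genes tested, and above them in 1 (2.94%), against 19.7%. In 16 CEP genes the groups overlapped. Among the CENP genes the LPS arrays lay below in 5 of 15 (33.3%) and above in 3 (20%), and 7 overlapped. The CENP shares were thus near those of all genes.

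Differences on these arrays drifted with the level of a gene, so each member was also set beside the genes of like level, divided into 20 equal bins of mean level. CEP genes lay below the median of their bin in 29 of 34 cases. Over all 34 the median distance was -0.10 (CEP minus bin). CENP genes lay below theirs in 8 of 15, with a median distance of -0.0022. This is a description of where the members lie, with no test.

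**Figure D2:**
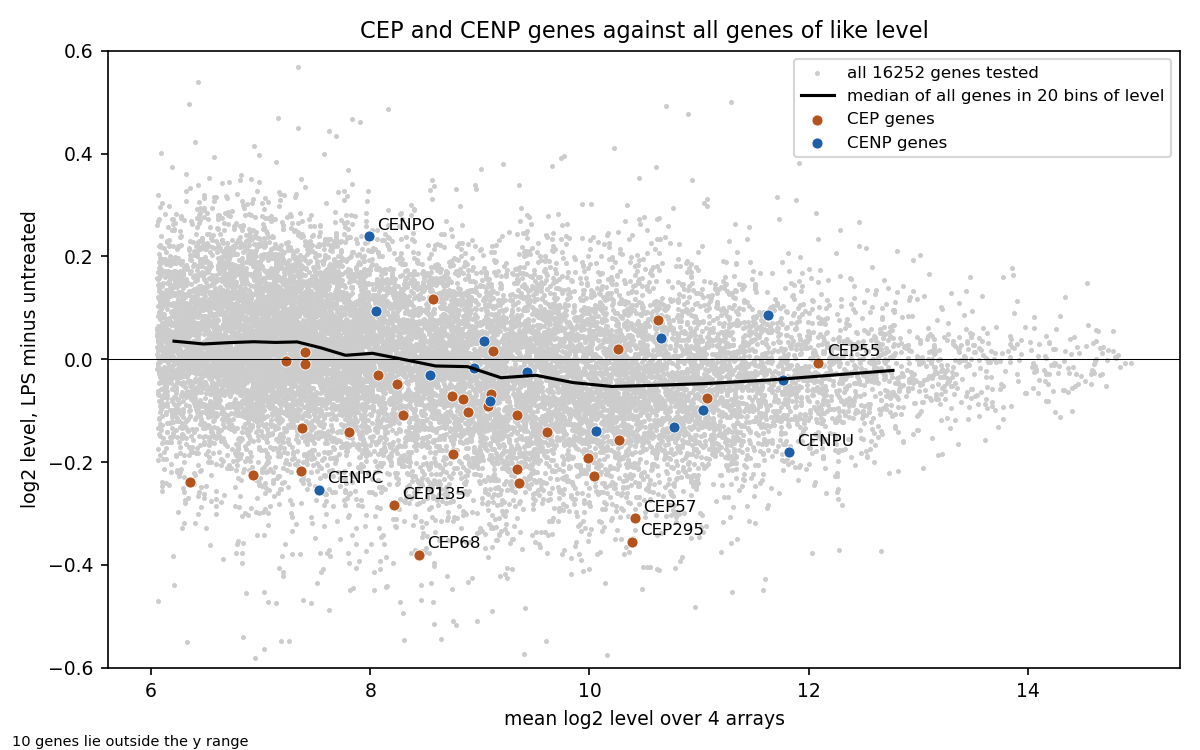
Mean log2 level over the 4 arrays (horizontal axis) against the log2 difference, LPS minus untreated (vertical axis), for all 16252 genes tested (grey), CEP genes (orange) and CENP genes (blue); the black line joins the medians of 20 level bins. Of the CEP genes, 29 of 34 lie below the line of their bin, and of the CENP genes 8 of 15.

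Of the 13 CEP genes that act in building, engaging and capping centrioles, 12 were below 0 and 0 were called. Their median was -0.16 (-10.3%). Both LPS arrays lay below both untreated arrays in 9 (69.2%, against 25.7% of all genes). By limma 4 were lower at an unadjusted p under 0.05 (30.8%, against 7.91% of all genes). CEP295, which turns a new centriole into one able to carry pericentriolar material, read 10.58 and 10.55 in untreated cells and 10.25 and 10.17 with LPS. Its difference was -0.35 (95% interval -0.51 to -0.20, limma adjusted p = 0.257), and its groups stood clear of each other. CEP57, which keeps centriole pairs together and organises the material around them, read 10.59 and 10.56 untreated and 10.37 and 10.16 with LPS, a difference of -0.31 (-0.51 to -0.11, limma adjusted p = 0.327). CEP135, a part of the cartwheel that sets the shape of a centriole, read 8.41 and 8.31 untreated and 8.09 and 8.06 with LPS, a difference of -0.28 (-0.47 to -0.10, limma adjusted p = 0.327). In these 3 genes the untreated arrays lay close to each other and both LPS arrays were lower.

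CEP44, which works in the same conversion step as CEP295, read 9.60 and 9.36 untreated and 9.26 and 9.21 with LPS, a difference of -0.24 (limma adjusted p = 0.410). Here the gap between the untreated arrays was about as wide as the difference. The scaffolds that place the kinase PLK4 on the mother centriole lay nearer to 0. CEP152 read 8.40 and 8.30 untreated and 8.20 and 8.29 with LPS (difference -0.11, limma adjusted p = 0.629), with untreated replicate 2 and LPS replicate 2 almost level. CEP192 read 9.23 and 9.05 untreated and 9.04 and 9.11 with LPS (difference -0.07, limma adjusted p = 0.793), and its groups overlapped. Their partner CEP63 had a difference of -0.18. Among the others, CEP350, a large protein that anchors microtubules, differed by -0.19, CEP76, which limits reduplication, by -0.16, and CEP120, which supports centriole elongation, by -0.14. CEP97, which caps centrioles together with CCP110, differed by -0.07 and CEP78, a protein of mature centrioles, by -0.08. CEP85, which binds the duplication factor STIL, was the only gene of the class above 0, at 0.02.

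The 8 genes of the linker, the appendages and the centriolar satellites were mixed. Of these, 6 were below 0, with a median of -0.07, and 4 had both LPS arrays lower (50%, against 25.7% of all genes). CEP68, a fibre protein of the linker, had the lowest difference of either family. It read 8.79 and 8.47 untreated and 8.21 and 8.29 with LPS, a difference of -0.38 (-0.65 to -0.11, limma adjusted p = 0.340). The untreated arrays of CEP68 lay farther apart than its LPS arrays, and its other probe sets, given further on, did not all point the same way. CEP250, the anchor of the same linker on the centriole, read 8.45 and 8.58 untreated and 8.62 and 8.64 with LPS. Its difference of 0.12 (limma adjusted p = 0.591) was the highest among the CEP genes and the only one in which both LPS arrays lay above both untreated arrays.

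CEP164, the distal appendage protein that recruits the kinase TTBK2 for cilium growth, read 10.12 and 10.20 untreated and 9.85 and 10.01 with LPS, a difference of -0.23 (-0.42 to -0.04, limma adjusted p = 0.381). Untreated replicate 2 was its highest array. CEP89, another distal appendage protein, differed by -0.03. CEP128, of the subdistal appendages, differed by -0.0027, and CEP170B, a relative of the subdistal protein CEP170, by 0.02. The satellite proteins CEP131 and CEP72 differed by -0.14 and -0.11.

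All 7 genes known mainly from the cilium and its base were below 0, with a median of -0.10. In 3 of them both LPS arrays were lower (42.9%, against 25.7% of all genes). CEP19, which acts with CEP350 early in cilium formation, had a difference of -0.22 (limma unadjusted p = 0.0493) and CEP126 one of -0.22. CEP290, a transition zone protein mutated in several ciliopathies, read 8.22 and 8.32 untreated and 8.15 and 8.30 with LPS. Its difference was -0.05 (limma adjusted p = 0.857) and its groups overlapped. CEP162, which directs transition zone assembly, differed by -0.13, and CEP43, also known as FOP, by -0.10. CEP20, a relative of CEP43, differed by -0.07, and CEP41, needed for tubulin glutamylation in cilia, by -0.0089.

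The 6 CEP genes outside these roles spread around 0, with 4 below it and a median of -0.05. CEP55, which brings the ESCRT machinery to the midbody at the end of cell division, read 12.14 and 12.05 untreated and 12.12 and 12.05 with LPS. Its difference was -0.0066, with an interval of -0.13 to 0.12 (limma adjusted p = 0.976), the narrowest interval among the CEP genes. CEP70, which binds gamma-tubulin, differed by -0.21. CEP112 differed by -0.24 with a wide interval of -0.56 to 0.08. CEP95 differed by -0.09, CEP85L by 0.01 and CEP15 by 0.08.

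Of the 13 CCAN genes, 9 were below 0, with a median of -0.03. Both LPS arrays were lower in 5 (38.5%) and higher in 2 (15.4%), against 25.7% and 19.7% of all genes. CENPC, the subunit that binds CENP-A nucleosomes and links them to the outer kinetochore, had the lowest difference among the CENP genes. It read 7.67 and 7.65 untreated and 7.44 and 7.37 with LPS, a difference of -0.25 (-0.43 to -0.07, limma adjusted p = 0.343). The arrays of each group were close to each other. CENPO, of the CENP-O/P/Q/R/U complex, had the highest difference of either family. It read 7.96 and 7.77 untreated and 8.06 and 8.15 with LPS, a difference of 0.24 (0.02 to 0.46, limma adjusted p = 0.396). CENPU, from the same complex, went the other way, with 12.00 and 11.82 untreated, 11.71 and 11.74 with LPS and a difference of -0.18 (-0.34 to -0.02, limma adjusted p = 0.396). CENPQ, also of this complex, lay at -0.02, so its subunits among the members had no common direction. The R subunit, ITGB3BP, is no member by its symbol and is given further on.

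CENPN, which with CENPL reads the CENP-A nucleosome, had 10.91 and 10.76 untreated and 10.73 and 10.68 with LPS, a difference of -0.13 (limma adjusted p = 0.506). Its partner CENPL differed by -0.02. In the CENP-H/I/K/M complex, CENPM read 10.09 and 10.17 untreated and 9.94 and 10.04 with LPS (difference -0.14, limma adjusted p = 0.489). CENPK read 11.09 on both untreated arrays and 11.02 and 10.95 with LPS (difference -0.10, limma adjusted p = 0.533). CENPH differed by -0.08 and CENPI by -0.03. All 4 subunits of that complex were therefore on the lower side, each with an interval that included 0.

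The CENP-T/W/S/X subunits have histone folds and form a second path to the outer kinetochore, and the 3 that were members all lay above 0. CENPT read 7.95 and 8.07 untreated and 8.02 and 8.19 with LPS (difference 0.09, limma adjusted p = 0.715). CENPW read 10.61 and 10.66 untreated and 10.70 and 10.65 with LPS (difference 0.04, limma adjusted p = 0.825). CENPX read 11.56 and 11.61 untreated and 11.65 and 11.68 with LPS (difference 0.09, limma adjusted p = 0.540). The groups overlapped in CENPT and CENPW and did not in CENPX. Of the 2 CENP genes outside the CCAN, CENPB, which binds a sequence box in alpha satellite DNA, read 9.0 and 9.04 untreated and 9.04 and 9.07 with LPS (difference 0.04, limma adjusted p = 0.882). CENPV, which acts at the spindle midzone, differed by -0.04.

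**Figure D3:**
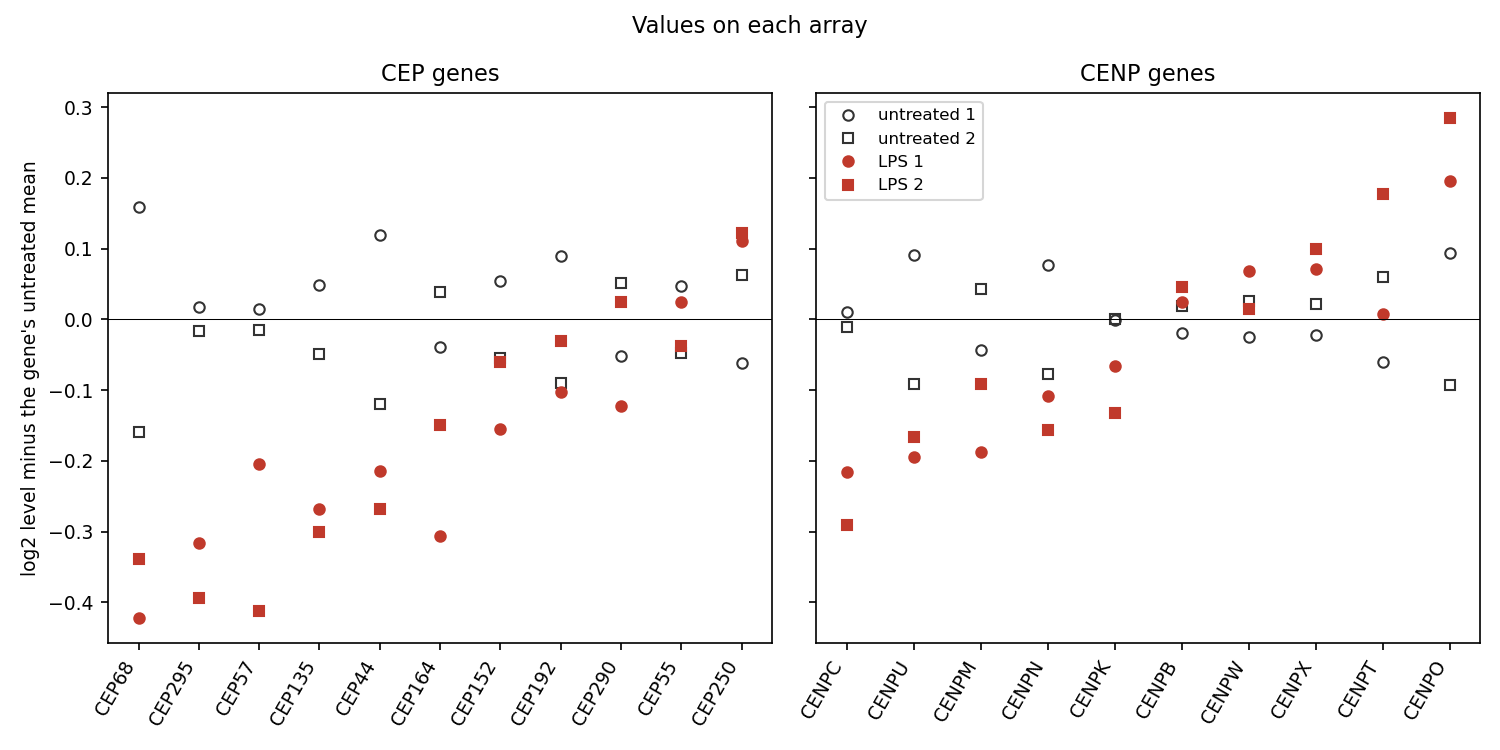
Log2 level on each array minus the gene's untreated mean (vertical axis) for the CEP genes (left) and CENP genes (right) whose 4 values are given in the text; open symbols are untreated arrays and filled symbols LPS arrays, circles replicate 1 and squares replicate 2. In CEP295, CEP57, CEP135 and CENPC both LPS arrays lie well under both untreated arrays, and in CENPO and CEP250 above them.

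The untreated arrays did not contribute equally. Untreated replicate 1 was the highest of the 4 arrays in 20 of 34 CEP genes (58.8%) and 7 of 15 CENP genes (46.7%), against 34.9% of all genes. The median gap between untreated replicates 1 and 2 was 0.10 for CEP genes, 0.02 for CENP genes and 0.0045 for all genes. At the low end, an LPS array was the lowest in 28 of 34 CEP genes, replicate 1 in 16 (47.1%) and replicate 2 in 12 (35.3%), against 24.9% and 24.5% of all genes, and in the CENP genes replicate 1 was the lowest in 4 and replicate 2 in 5. Without untreated replicate 1 the CEP median was -0.07, with 25 of 34 below 0, and without untreated replicate 2 it was -0.16, with 29 below 0. The CENP median was -0.0045 and -0.06 in the same order. Without LPS replicate 1 or without LPS replicate 2, 4 CEP genes had an unadjusted p under 0.05 and a lower level, in place of 7, when the share of all genes was 3.74% and 2.56%.

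Single members rested on single arrays to different degrees. Whichever array was left out, CEP295 stayed between -0.39 and -0.32, CEP135 between -0.33 and -0.24 and CENPC between -0.29 and -0.22. Without untreated replicate 1, CEP68 was at -0.22, CEP44 at -0.12, CEP70 at -0.07, CEP126 at -0.11, CEP250 at 0.05, CENPU at -0.09 and CENPN at -0.06. CEP350 was then at -0.10, CEP76 at -0.07, CEP152 and CEP162 at -0.05, CEP72 at -0.06, CEP95 at -0.0087 and CENPH at -0.0097. Each of these, and some members not listed, lay over 1.5 times nearer to 0 than with all arrays. The same held, among others, for CENPO (0.15) and CEP112 (-0.09) without untreated replicate 2. It also held for CEP164 (-0.15), CEP19 (-0.13) and CENPM (-0.09) without LPS replicate 1, and for CEP57 (-0.20), CENPK (-0.07) and CEP112 (-0.09) without LPS replicate 2.

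Some control probe sets moved with the groups too. The poly-A spike-ins, bacterial RNAs mixed in ahead of the labelling step, have 24 probe sets, whose mean was 8.60 and 8.25 untreated and 7.98 and 7.92 with LPS. All 24 were lower on both LPS arrays. The 3 probe sets for 18S rRNA were also lower on both, by a mean of 0.57 (LPS minus untreated, -0.57), and the 3 for 28S rRNA differed by 0.10. The 3′ minus 5′ signal of beta-actin, a measure of RNA integrity and of labelling, was 0.64 and 0.86 untreated and 0.39 and 0.63 with LPS, and that of GAPDH differed by 0.0093. The part of these shifts in the CEP and CENP differences was not tested.

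Other probe sets of the same genes gave a further reading, though from the same arrays and RNA. Of 51 further CEP probe sets above the level filter, 35 lay below 0 and 16 above, and 36 had the sign of the gene's brightest probe set. Their median was -0.07, with both LPS arrays lower in 20 and higher in 9, against 25.7% and 19.7% of all genes. Of 10 further CENP probe sets, 5 lay on each side, 7 had the sign of the brightest, and the median was 0.0013. Both LPS arrays were lower in 2 of these and higher in 2. All 5 probe sets of CEP57 were lower with LPS, from -0.28 to -0.54, and its groups did not overlap in any of them. All 4 of CEP295 were lower as well, at -0.35, -0.34, -0.32 and -0.08, again without overlap. CEP350 (4 of 4) and CEP70 (5 of 5) also had one direction. All 5 probe sets of CEP57 end in _s_at or _x_at, suffixes for probes that can bind more than 1 transcript. CEP57 therefore had no value when such probe sets were left out.

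CEP68 did not. Its 2 brightest probe sets lay at -0.38 and -0.41, and the other 3 at 0.16, 0.13 and 0.14, the last of them under the level filter. Both of the lower ones and 1 of the higher ones end in _s_at, a suffix for probes that can bind more than 1 transcript, and without such probe sets the gene's difference was 0.13. For CEP250 the brightest probe set stood at 0.12, a second at 0.05 and the remaining one at -0.17. For CEP164, the dimmer probe sets stood at -0.0087 and 0.10, in place of the -0.23 of the brightest. CENPU was lower in all 3 of its probe sets (-0.18, -0.06 and -0.13). The second probe set of CENPO stood at 0.03 with overlapping groups.

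**Figure D4:**
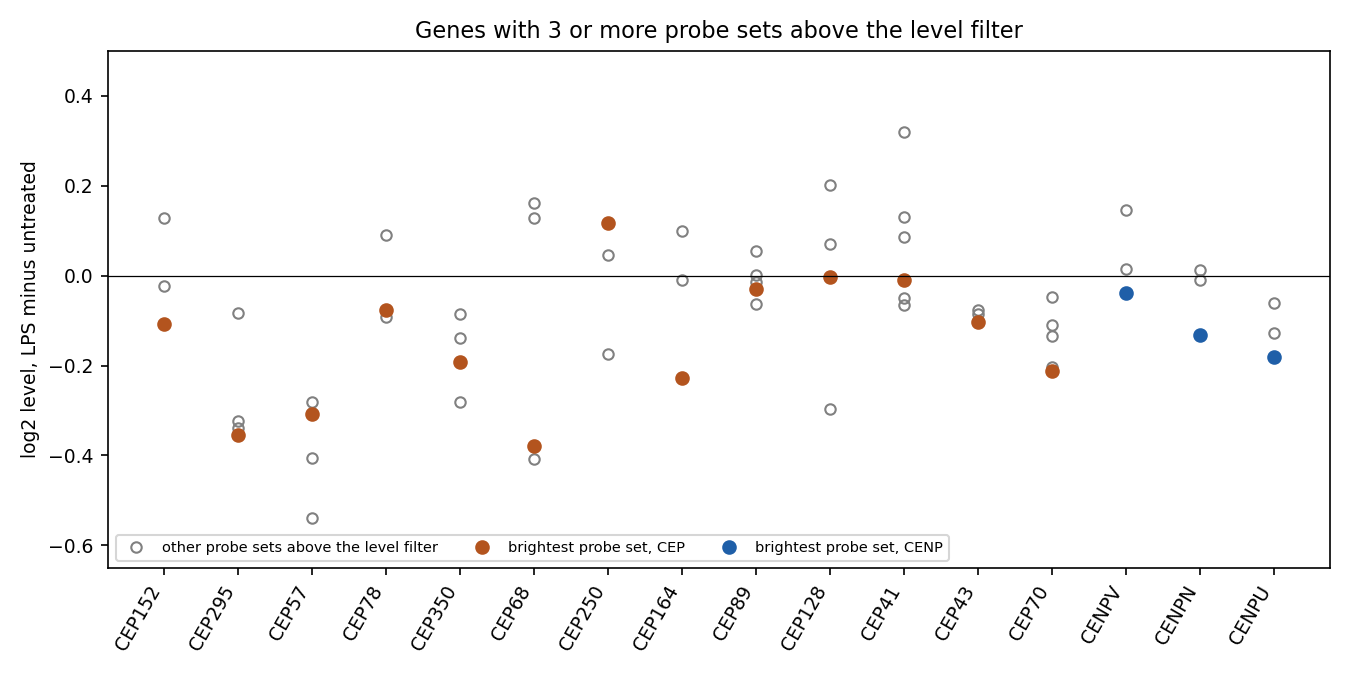
Log2 difference, LPS minus untreated (vertical axis), of every probe set above the level filter for the members with at least 3 such probe sets; filled points are the brightest probe set, orange for CEP and blue for CENP, and open points the others. All points of CEP57, CEP295, CEP350, CEP70, CEP43 and CENPU lie below 0. Those of every other gene shown, CEP68 and CEP250 among them, lie on both sides.

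Genes of the same structures that were not members, from lists drawn up by function, were read beside them, and 0 of them were called by limma. Of 15 further centriole duplication genes, 14 were below 0, with a median of -0.12 (-0.11 against their level bins). By limma at an unadjusted p under 0.05, 5 were lower (33.3%, against 7.91% of all genes) and 0 higher. POC1B, which stabilises centrioles, had a difference of -0.27 (limma adjusted p = 0.327) and CETN3, a centrin, one of -0.27 (limma adjusted p = 0.331). CPAP, the centriole elongation factor also called CENPJ and listed under the first of these names, read 9.08 and 8.97 untreated and 8.83 on both LPS arrays, a difference of -0.19 (limma adjusted p = 0.415). Of 11 appendage and linker genes 7 were below 0, with a median of -0.04 (-0.08 against their level bins) and 1 lower at that p (9.09%). NEK2, the kinase that dissolves the linker, had -0.23 (limma adjusted p = 0.333) and CNTRL, of the subdistal appendages, -0.20 (limma adjusted p = 0.427). Of 22 genes of the pericentriolar material and satellites 15 were below 0, with a median of -0.06 (-0.02 against their level bins). At that p 3 were lower (13.6%). The lowest p belonged to TUBGCP3, of the gamma-tubulin ring complex (-0.24), and AKAP9, a scaffold (-0.22).

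At the kinetochore, 16 of 19 outer kinetochore genes were below 0, with a median of -0.10 (-0.07 against their level bins). Both LPS arrays were lower in 12 (63.2%, against 25.7% of all genes). By limma 4 were lower at an unadjusted p under 0.05 (21.1%, against 7.91% of all genes). NDC80 and NUF2, which bind each other and the microtubule, had differences of -0.33 and -0.31. Of the 7 measured genes on the CENP-A loading list 6 were below 0, with a median of -0.11 (-0.07 against their level bins). At that p 2 were lower (28.6%), MIS18A at -0.19 and OIP5 at -0.18. The list holds ITGB3BP (-0.12), also called CENP-R, a subunit of the CENP-O/P/Q/R/U complex and not a loading factor. The 4 chromosomal passenger genes were divided, with a median of 0.0068, CDCA8 at 0.08 and AURKB at 0.03. The outer kinetochore list thus had a lower median than the CENP members, a difference that was not tested. Of the 3 genes the rule left out, CENPA, the centromeric histone itself, differed by 0.06, CENPE, a kinetochore motor, by -0.08 and CENPF, a late cell cycle kinetochore protein, by -0.17 (limma adjusted p = 0.410).

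The choice of scaling moved both medians. CEP genes had a median of -0.07 after quantile normalization, -0.08 after cyclic loess and -0.12 after median centring of the arrays. CENP genes had medians of 0.0023, -0.00014 and -0.04 in the same order, and all genes of 0.01, 0.01 and -0.02. The CENP median therefore had no settled direction, and the CEP median stayed below 0 in the 16 settings run, between -0.16 and -0.07.

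**Figure D5:**
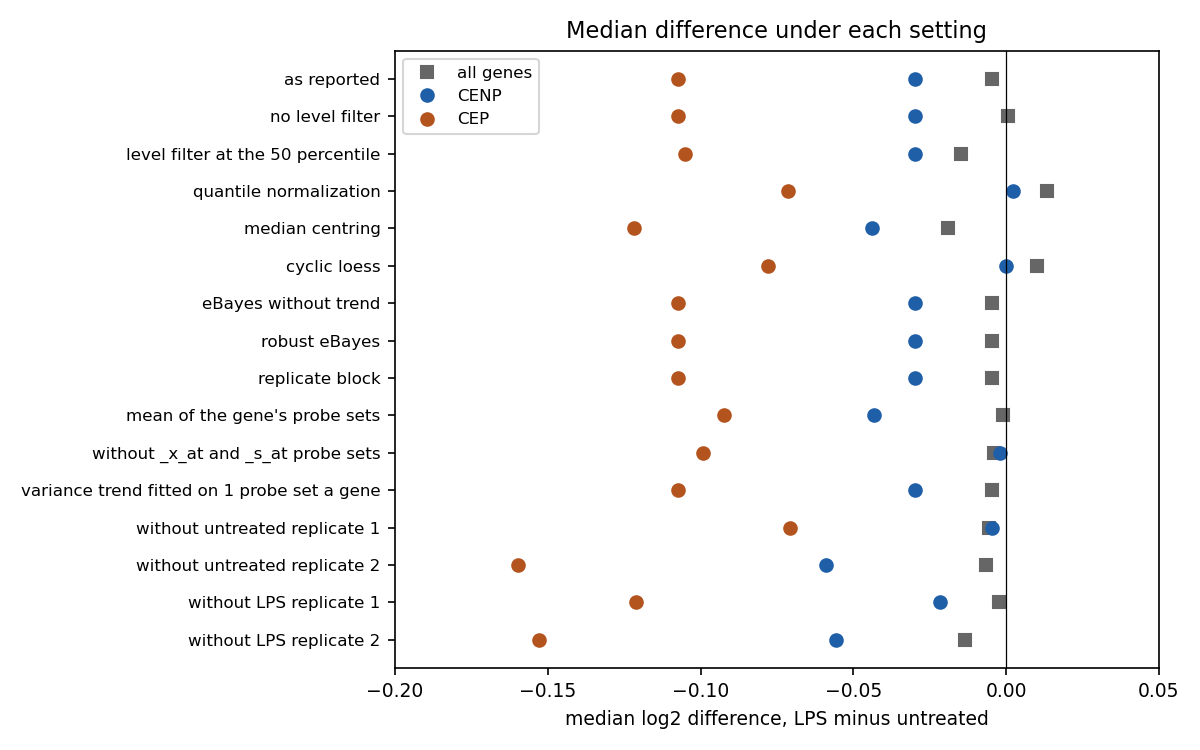
Median log2 difference, LPS minus untreated (horizontal axis), of all genes (grey squares), CENP genes (blue) and CEP genes (orange) as reported and under each other setting (vertical axis). CEP medians lie between -0.16 and -0.07 throughout, and CENP medians between -0.06 and 0.0023.

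The arrays had medians of 7.004 to 7.034 and correlated across probe sets at r = 0.996 to 0.998, and the 2 arrays of each group limit the precision. Of the chemokines that answer to LPS in epithelial cells, CXCL1 was 3.98-fold higher with LPS. CCL20 read 5.70 and 5.61 untreated, under the filter value of 6.06, and 8.66 and 8.50 with LPS. Of 10 gastric epithelial markers 9 were above the level filter, with mean levels of 11.78 to 11.83 over the list on the 4 arrays. The list means were 7.70 to 7.73 for 6 measured leukocyte markers, 7.37 to 7.50 for 6 fibroblast markers and 6.15 to 6.29 for 4 endothelial markers. PTPRC and CD14 of the leukocyte list, CDH5 and KDR of the endothelial list and KRT20 of the gastric list were under the filter. The other measured markers were above it, with all 6 of the fibroblast list among them. By mean level COL1A1 stood at the 81.5 percentile of probe sets, and CD3E, CD79A and PECAM1 each near the 67 percentile. LYZ, the lysozyme gene on the leukocyte list, read 12.70 and 12.79 untreated and 12.60 and 12.59 with LPS, a difference of -0.15 (limma adjusted p = 0.349). By limma 0 of the markers above the filter were called, and the part of these markers in the CEP and CENP differences was not tested.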

How the data were processed

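RNA of 4 cultures of MKN45 cells, 2 untreated and 2 with LPS, was labelled with biotin and hybridised, per the labels' protocols. The deposited values are log2 levels of 54675 probe sets, judged from their range. MAS5 and RMA are named in the submitters' processing notes, and which of them made the values is not given in the sources used here. Their distributions were nearly equal between arrays, so a shift of all transcripts would not be seen.

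The 62 control probe sets were left out. Gene names came from the platform annotation, checked by Entrez identifier against RefSeq GRCh38.p14, where all 49 members matched. Probe sets with a mean under the 30 percentile (6.06) were removed, and 38229 entered limma 3.58.1 (R 4.3.3, lmFit, eBayes with trend, no replicate block, two-sided). The brightest probe set of each of 16252 genes was then kept, with Benjamini-Hochberg adjustment over these genes, a threshold of 0.05 and 7.06 degrees of freedom. The procedure was tested on simulated data, with planted changes larger than any member difference. That test does not show how often differences as small as those of the members would be called. The p-values measure the spread between these arrays. Same-numbered arrays deviated together at r = 0.154 over 2 pairs, too few to settle a pairing.

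Every member was named. Values on all arrays were given for up to 6 falls and 6 rises per family with separated groups, and for 11 chosen genes, CENPB, CENPC, CENPJ (listed as CPAP), CENPT, CENPW, CEP55, CEP152, CEP164, CEP192, CEP250 and CEP290. Of each list of further centrosome, centromere and kinetochore genes, the 2 genes of smallest p were named. Genes of the marker lists were not named by this rule. The members and lists were chosen with earlier results of these data known. AZI1, on the satellite list, is now the member CEP131 and was counted once. Alternatives were other level filters, scalings, variance models, probe set rules, a threshold of 0.1, the replicate block and leaving out each array.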

Additional observations from a re-analysis of the deposited data

How the results depend on the processing

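The 34 CEP and 15 CENP genes had 0 calls in all 16 alternatives, with a smallest limma adjusted p of 0.0994 for CEP and 0.107 for CENP genes. Over all genes 4 were called as reported, 7 with the replicate number as a block (replicate block), and 10 with the variance trend fitted on 1 probe set a gene, an alternative chosen after seeing the data. The count was 3 to 5 when 1 array was left out, in fits that take the spread from the group that still has 2 arrays. Under the replicate block 11 CEP genes were lower at an unadjusted p under 0.05, against 10.4% of all genes, and the numbers are not known to pair the arrays. When 1 array was left out the CEP median ranged from -0.16 to -0.07 and the CENP median from -0.06 to -0.0045.

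Of the 49 members, 24 were below 0 in every setting in which they had a value and 5 above 0 (CENPB, CENPO, CENPT, CENPW and CENPX), and the other 20 changed sign at least once. After quantile normalization CEP55 was at 0.035, CENPL at 0.018, CENPI at 0.0023 and CENPQ at 0.03, and after cyclic loess CEP55 at 0.029, CENPL at 0.022 and CENPQ at 0.021. Median centring put CEP85L at -0.00049. Averaging the probe sets of each gene put CEP250 at -0.0045, CEP41 at 0.069 and CENPV at 0.041. Without _x_at and _s_at probe sets CEP68 was at 0.13, CENPV at 0.015 and CENPN at 0.012, and 8 CEP genes and 1 CENP gene had no value, as had 2 CEP genes with the level filter at the 50 percentile. With 1 array left out, differences ran from -0.16 to 0.023 for CEP192, -0.047 to 0.079 for CEP85, -0.24 to 0.083 for CEP78, -0.15 to 0.15 for CEP128, -0.0043 to 0.046 for CEP170B, -0.10 to 0.085 for CEP41, -0.21 to 0.0073 for CEP43, -0.0535 to 0.040 for CEP55, -0.19 to 0.051 for CEP97, -0.12 to 0.025 for CEP290, -0.15 to 0.18 for CEP85L, -0.014 to 0.17 for CEP15, -0.12 to 0.055 for CEP89, -0.043 to 0.0096 for CENPQ, -0.091 to 0.041 for CENPL and -0.069 to 0.0094 for CENPI. The causes of these changes were not tested. Whether a probe was above background is not given with the values, so the level filter stands in for it.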

Other observations

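In 3 ciliary or appendage genes a dimmer probe set stood apart from the brightest one, and these were chosen after their values were seen. For CEP290 the second probe set read 6.40 and 6.53 untreated and 6.06 and 6.13 with LPS, a difference of -0.37 beside -0.05 for the brightest. For CEP41 one of 6 read 6.49 and 6.68 untreated and 6.91 and 6.90 with LPS, a difference of 0.32. For CEP128 one read 6.32 and 6.37 untreated and 6.05 and 6.04 with LPS (-0.30). Another of CEP128 read 6.26 and 6.18 untreated and 6.43 and 6.41 with LPS (0.20), so probe sets of a single gene separated the groups in opposite directions. Mean levels were 6.28 for the CEP290 probe set and 6.20 and 6.32 for those of CEP128, near the filter value of 6.06. That of CEP41 was 6.75. Over all genes the groups stood apart in 25.7% (lower) and 19.7% (higher). CEP57L1, a relative of CEP57 outside the rule, differed by -0.07 with overlapping groups.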
